A study of Homo sapiens with 4 samples.

Results

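Mitochondrial ribosomal protein genes were described in H9 human embryonic stem cells, an established pluripotent line, by RNA-seq of polyadenylated RNA. The members were the rows whose gene symbol is MRPL or MRPS followed by a number and, for some, a letter from A to C. This gave 78 genes of the 60671 in the table, 49 named for the large subunit (MRPL) and 29 for the small subunit (MRPS), and all 78 were described there as a mitochondrial ribosomal protein. The study compared 2 control libraries with 2 libraries of cells labelled CFIm25 KO+ 3Flag-CFIm25 overexpression, called KO+OE here. CFIm25, the product of NUDT21, is a subunit of the cleavage factor that guides the choice of poly(A) sites. The study describes its mock controls as clones given the CRISPR vector with no guide. A caption on its overexpression RNA-seq calls the comparator mock (m+OE), with m for mutant and OE for overexpression. The sample titles say only control H9, so which cells the 2 control libraries came from is not settled. The edited cells were 1 single-cell clone that keeps a low level of an N-terminally shortened protein, to which a lentiviral copy of Flag-tagged CFIm25 under an EF1 promoter was added. The edit is a knockout by the sample titles but a knockdown by the title of the series. Nothing says that the libraries of a group came from separate cultures. Every p-value below therefore sets the group difference against a spread between libraries, which may be technical. With 1 edited clone, the spread between edited clones does not enter it.

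The mitochondrial ribosome translates the few proteins that the mitochondrial genome encodes, all of them subunits of oxidative phosphorylation. Its RNAs come from mitochondrial DNA, whereas its proteins are encoded in the nucleus, made in the cytosol and imported. Part of the proteins have a counterpart in bacterial ribosomes and part are found in mitochondria alone. In the complex, most of these proteins are present once per ribosome.

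The deposited values name no unit and were read as TPM from their totals per library. TPM is corrected for transcript length and for library size. On that reading levels of different genes can be set side by side, although the lengths used are not given. Depth is not known from such values. The marker POU5F1 lay between 2164 and 2212 TPM and LIN28A between 517 and 528 TPM in the 4 libraries, and SOX2 and NANOG between 15.9 and 19.9 TPM. NUDT21 stood at 161 and 152 TPM in the controls and at 162 and 157 TPM in KO+OE. This level does not check the edit, since it sums whatever the edited and the added copies gave. The share of the library that came from genes of the mitochondrial genome itself was 21.0% and 21.1% in the controls, and 21.6% and 22.1% with KO+OE.

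The members' levels covered a wide range in every library. The mean over the 4 libraries ran from 0.573 TPM for MRPL1 to 295 TPM for MRPL12, a 515-fold range within 1 complex. The low end of this range rests on values under 1 TPM. Among members averaging 1 TPM or more the range was 109-fold, starting from MRPS36 at 2.70 TPM. The median member stood at 50.5 TPM with quartiles of 19.0 and 111 TPM, against a median of 7.77 TPM over the 12319 genes averaging 1 TPM or more. There were 21 members at 100 TPM or more and 12 under 10 TPM, of which MRPL1 and MRPL50 alone were under 1 TPM. The 10 highest members held 40.3% of the summed level of all 78, and the 12 under 10 TPM together held 0.882%.

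**Figure D1:**
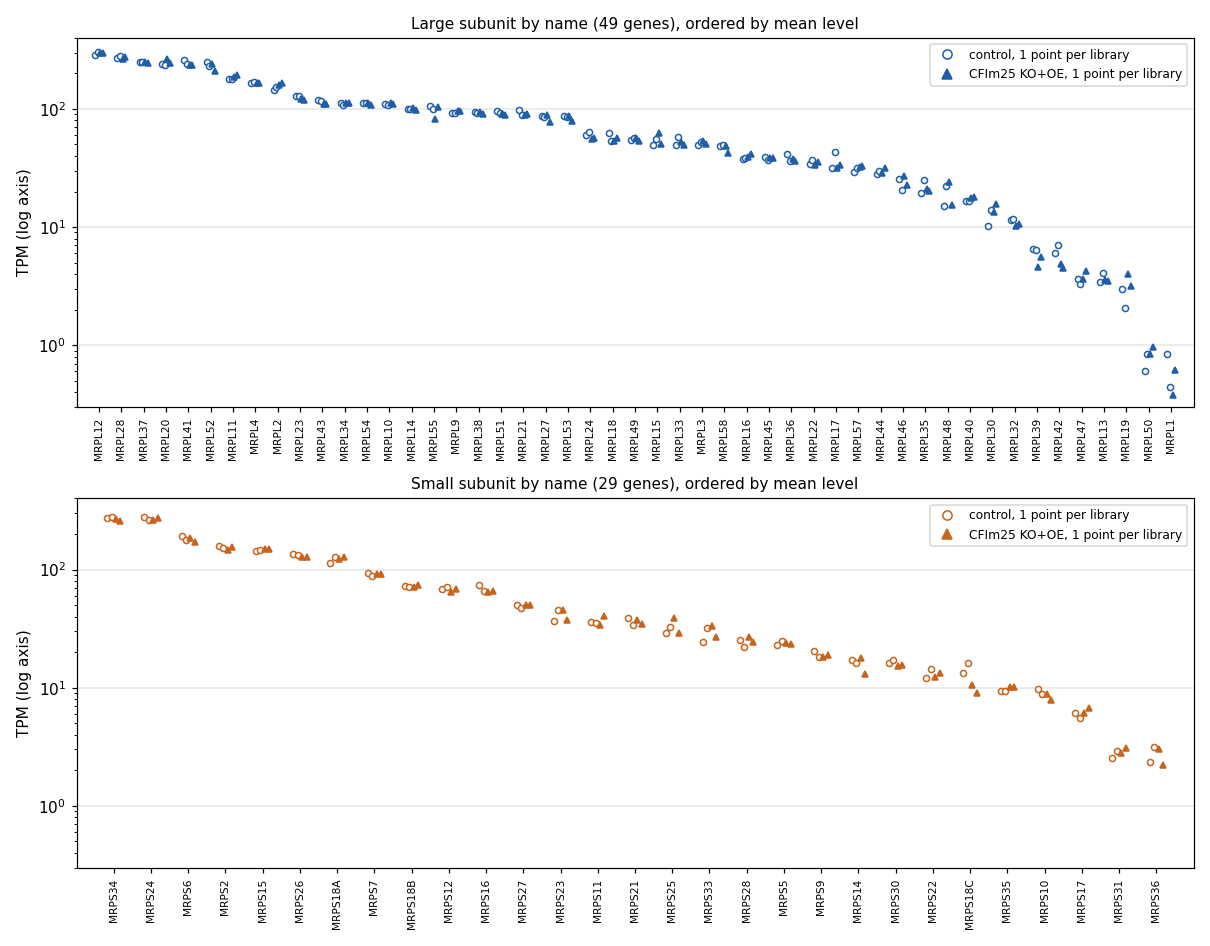
Level of each member in each library in TPM on a log axis, with large subunit genes in the upper and small subunit genes in the lower panel, ordered by mean. Open circles are the 2 control libraries and filled triangles the 2 KO+OE libraries. The points of a gene lie close together at the left and spread at the right, where levels fall under 10 TPM, and the order of the genes was nearly the same in the 4 libraries.

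The order of the members was shared by all libraries. Across the 78 genes, the Spearman rank correlation between 2 libraries lay between 0.994 and 0.997 over the 6 pairs, within and between groups. These are correlations across genes of libraries made with 1 protocol and are given as a description.

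The highest large subunit members were MRPL12, MRPL28, MRPL37 and MRPL20. MRPL12, the stalk protein that recruits translation factors and that is also known to bind the mitochondrial RNA polymerase, stood at 287 and 300.6 TPM in the controls and at 296 and 297 TPM in KO+OE. MRPL28, a bacterial-type protein of the large subunit, stood at 268 and 282 TPM in the controls and at 263 and 273 TPM in KO+OE. Both genes overlapped between the groups, and MRPL12 was above MRPL28 in every library, with control means of 294 ± 9.92 and 275 ± 9.41 TPM (SD, n = 2). MRPL37, which has no bacterial counterpart, lay between 244 and 250.3 TPM. MRPL20, which does, stood at 238 and 234 TPM in the controls and at 263 and 243 TPM in KO+OE. The KO+OE libraries were thus both above the controls for MRPL20, with an adjusted p of 0.93 (limma).

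The small subunit was led by MRPS34, MRPS24, MRPS6 and MRPS2. MRPS34, a protein found only in mitochondrial ribosomes, stood at 274 and 276 TPM in the controls and at 266 and 259.6 TPM in KO+OE. MRPS24, the counterpart of bacterial S3 at the mRNA entry, stood at 278 and 264 TPM in the controls and at 262 and 273 TPM in KO+OE. The 2 genes had the same mean of 269 TPM. MRPS6 lay between 171 and 191 TPM and MRPS2 between 145 and 158 TPM, so both lay below the first pair in every library.

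At the other end, MRPL1, the protein of the mobile L1 stalk beside the exit site for tRNA, stood at 0.850 and 0.440 TPM in the controls and at 0.380 and 0.620 TPM in KO+OE. MRPL50, a mitochondria-specific protein, stood at 0.600 and 0.840 TPM in the controls and at 0.850 and 0.970 TPM in KO+OE. These 2 genes overlapped each other in level, and neither was tested because their means lay under 1 TPM. MRPL19 followed with 3.02 and 2.07 TPM in the controls and 4.01 and 3.16 TPM in KO+OE, and then MRPL13 with values between 3.44 and 4.12 TPM. Among small subunit genes the lowest were MRPS36 (2.23 to 3.16 TPM), MRPS31 (2.53 to 3.06 TPM), MRPS17 (5.51 to 6.70 TPM) and MRPS10 (7.92 to 9.69 TPM). MRPS36 carries a ribosomal name but is known as a subunit of the 2-oxoglutarate dehydrogenase complex, and its level did not differ from that of MRPS31 beyond their spread.

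The 4 coding starts below are those of the 2 highest and the 2 lowest large subunit genes, shown because base composition separates them. Each is the first 120 bases of the coding sequence of the canonical transcript in GENCODE release 44, read 5′ to 3′, with the start codon in capitals. MRPL12 lies at chr17:81703367-81707517 on the forward strand, MRPL28 at chr16:366969-370538 on the reverse, MRPL50 at chr9:101387633-101398618 on the reverse and MRPL1 at chr4:77862830-77952785 on the forward strand (RefSeq, GRCh38.p14).
MRPL12: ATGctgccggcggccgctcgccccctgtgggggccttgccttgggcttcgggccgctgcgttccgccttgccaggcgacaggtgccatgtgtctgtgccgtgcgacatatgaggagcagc
MRPL28: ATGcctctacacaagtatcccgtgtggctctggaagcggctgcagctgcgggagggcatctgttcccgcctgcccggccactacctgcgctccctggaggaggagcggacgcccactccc
MRPL50: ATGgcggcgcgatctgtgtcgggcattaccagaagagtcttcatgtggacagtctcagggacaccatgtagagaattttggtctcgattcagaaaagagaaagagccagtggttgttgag
MRPL1: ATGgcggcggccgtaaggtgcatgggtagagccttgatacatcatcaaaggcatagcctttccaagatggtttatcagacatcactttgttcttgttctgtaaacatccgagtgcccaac

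G and C made up 70.0% of the stretch of MRPL12 and 67.5% of that of MRPL28, against 49.2% for MRPL50 and 47.5% for MRPL1. Over the whole coding sequence the shares were 60.8%, 60.4%, 43.7% and 38.4% in the same order. Over the whole transcript they were 64.6%, 59.6%, 35.0% and 36.9%.

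This held across the members. The rank correlation of level with the GC content of the canonical transcript was 0.85 over the 78 genes in the mean and between 0.84 and 0.85 in each library. It was 0.84 over the 49 large subunit genes and 0.85 over the 29 small subunit genes. With the GC content of the coding sequence alone it was 0.78. Over the 12147 genes tested that have a transcript in the same annotation it was 0.27, over 83 cytosolic ribosomal protein genes 0.59 and over 35 nuclear subunits of complex I 0.77. The genes of 1 library share its depth and its chemistry, so these values describe the libraries, and whether GC content affected library preparation was not tested.

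By class of GC content, the 18 members under 42% had a median of 7.30 TPM and none reached 100 TPM. The 23 members from 42% to 50% had a median of 32.3 TPM, with MRPS6 alone above 100 TPM. The 25 members from 50% to 58% had a median of 94.3 TPM and the 12 at 58% or more a median of 142 TPM. Of the 12, 9 were at 100 TPM or more, and the lowest of them, MRPS12, stood at 68.0 TPM.

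**Figure D2:**
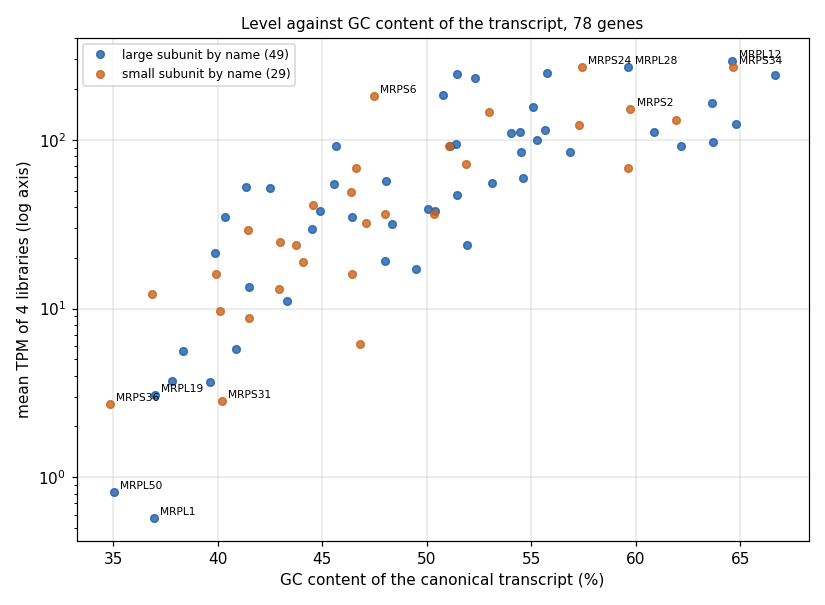
Mean level over the 4 libraries in TPM (log axis) against the GC content of the canonical transcript in percent, 1 point per gene, with large subunit genes in blue and small subunit genes in orange. Levels rise from 0.573 and 0.815 TPM at the left to over 200 TPM at the right, with MRPS6 high for its GC content.

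Length went the other way. The rank correlation of level with transcript length was -0.45, and GC content and length were themselves related at -0.52. Among the 60 members with a transcript under 2000 bases the correlation with GC content was 0.81 and that with length -0.26. The TPM values depend on the lengths the authors divided by, which are not given in the sources used here. The mean TPM multiplied back by the canonical length still had a rank correlation of 0.62 with GC content and 0.07 with length. MRPL42 is the member for which the length matters most, since its canonical transcript has 15557 bases and its coding sequence is short.

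The 2 subunits differed in their typical level. The median large subunit gene stood at 54.7 and 56.4 TPM in the controls and at 56.0 and 53.1 TPM in KO+OE, and the median small subunit gene at 36.1 and 34.1 TPM in the controls and at 37.6 and 34.7 TPM in KO+OE. The ratio of the medians was therefore above 1 in every library, between 1.49 and 1.65. The quartiles overlapped widely, from 24.0 to 111 TPM for the large and from 16.0 to 91.6 TPM for the small subunit. The median GC content of the transcripts was 50.8% for large and 46.6% for small subunit genes. Moving MRPS30 and MRPS18A to the large subunit, where their proteins sit in the structure, and leaving out MRPS36 left the medians at 55.2 and 36.3 TPM. Within classes of GC content the direction was not the same throughout. Large and small subunit medians were 5.6 and 9.7 TPM under 42%, and 34.7 and 28.5 TPM from 42% to 50%. They were 94.3 and 107 TPM from 50% to 58%, and 145 and 142 TPM at 58% or more.

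By origin, following the names used for the structure of the ribosome, the 46 members named for a bacterial counterpart had a median of 55.6 TPM and the 31 named as mitochondrial a median of 41.2 TPM. The 31 include MRPS18A and MRPS18B, which are homologues of a bacterial protein although they are named as mitochondrial. Both kinds spanned the range, from 0.573 to 295 TPM and from 0.815 to 269 TPM. The highest and the lowest member were both of bacterial type.

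Summed over its genes, the large subunit held 4115 and 4121 TPM in the controls and 4116 and 4048 TPM in KO+OE. The small subunit held 1976 and 1958 TPM in the controls and 1948 and 1930 TPM in KO+OE. The sum over all members was 6084 ± 8.04 TPM (SD, n = 2) in the controls and 6021 ± 60.8 TPM in KO+OE, a difference of -1.04%. As a share of the library it was 0.617% and 0.616% in the controls, and 0.614% and 0.606% with KO+OE. As a share of the genes not encoded by the mitochondrial genome it was 0.781% and 0.780% in the controls and 0.783% and 0.777% in KO+OE, so the groups overlapped. With 2 libraries a group, an exact permutation test cannot give a two-sided p under 0.333, and none was run. In bulk RNA, fewer cells with a transcript and less of it per cell cannot be told apart.

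**Figure D3:**
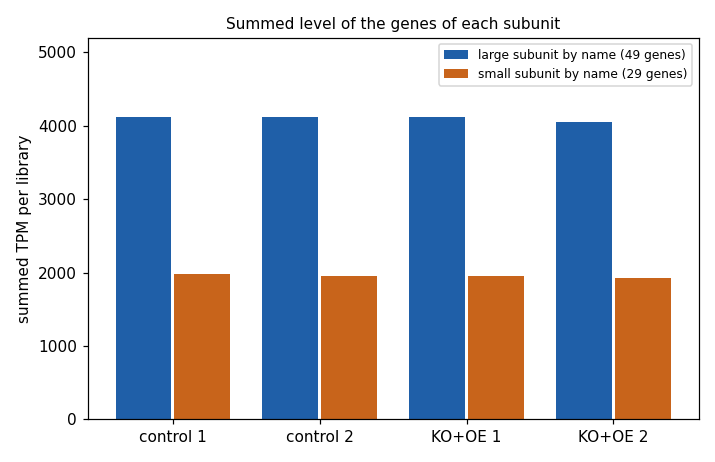
Summed TPM of the 49 large subunit genes (blue) and the 29 small subunit genes (orange) in each of the 4 libraries, with the axis starting at 0. The bars stay between 4048 and 4121 TPM for the large and between 1930 and 1976 TPM for the small subunit.

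KO+OE was compared with control to ask whether the members differed in level between the groups. No library is labelled as edited cells without the added copy, and the origin of the controls is not settled. The comparison therefore does not give the effect of losing CFIm25, which was not tested. Of the 78 members, 76 averaged 1 TPM or more and entered the test, and none passed an adjusted p of 0.05 (limma with Benjamini-Hochberg adjustment over all 12319 genes), where 1 of all genes tested, or 0.00812%, did. At an unadjusted p under 0.05 there were 4 members, 5.26% of the 76, against 5.33% of all genes tested, so the share of members is that of the background. All 4 were lower in KO+OE. Over all genes tested, 3.06% were lower and 2.26% higher at this threshold. The 2 groups of libraries did not overlap for 26 members, 34.2% of the 76, against 34.1% of all genes. Of these, 12 were higher in KO+OE and 14 lower, where over all genes tested 14.5% were higher and 19.6% lower.

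The median log2 fold change, KO+OE minus control on the log2(TPM + 1) scale, was -0.02 over the members, -0.02 over the large and -0.01 over the small subunit, against -0.01 over all genes tested. The values ran from -0.53 to 0.38, with 32 members above 0 and 44 below. When libraries were scaled to the genes not encoded by the mitochondrial genome, 36 were above 0 and 40 below. On the log2(TPM + 1) scale, the 95% interval lay within a 1.5-fold difference in either direction for 70 of the 76 members. It lay within 2-fold for all 76. These are folds of TPM + 1, and for low genes the same interval is wider in TPM itself. Over all genes tested, 71.0% lay within 1.5-fold on this scale. Over the genes at a mean of 10 TPM or more it was 95.4%, beside 63 of 66 members at that level.

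**Figure D4:**
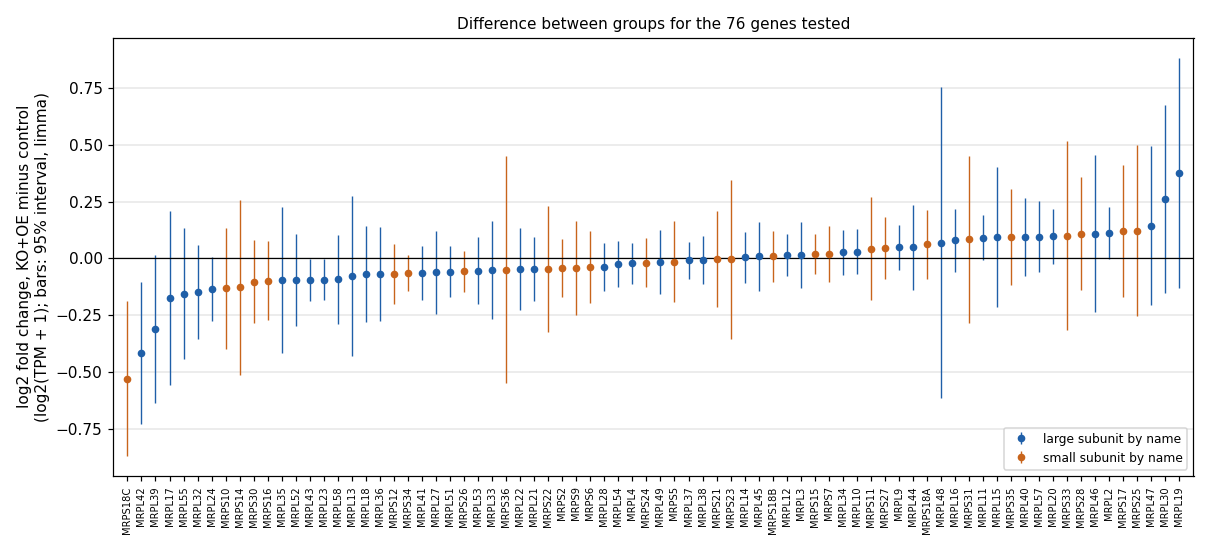
Log2 fold change of each of the 76 members tested, KO+OE minus control on the log2(TPM + 1) scale, in ascending order with limma's 95% intervals, large subunit genes in blue and small subunit genes in orange. Most points lie near 0, and the ends of the order, MRPS18C at -0.53 and MRPL19 at 0.38, belong to genes with low levels.

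The 4 members with an unadjusted p under 0.05 were MRPS18C, MRPL42, MRPL23 and MRPL43. MRPS18C, which binds in the platform of the small subunit, stood at 13.2 and 16.1 TPM in the controls and at 10.6 and 9.03 TPM in KO+OE, where both libraries were below both controls. Its log2 fold change was -0.53 (95% interval -0.87 to -0.19, limma adjusted p = 0.93). Of its exon length, 83.6% overlaps the opposite-strand gene ABRAXAS1, and without a stated strand setting reads from the 2 genes cannot be told apart. MRPL42, a mitochondria-specific protein, stood at 6.08 and 7.05 TPM in the controls and at 4.84 and 4.49 TPM in KO+OE, again without overlap. Its log2 fold change was -0.41 (95% interval -0.73 to -0.10, limma adjusted p = 0.93).

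The remaining pair of the 4 had high levels and small differences. MRPL23, a protein of the rim of the exit tunnel, stood at 128 and 129 TPM in the controls and at 121 and 119.7 TPM in KO+OE, which is -0.09 as a log2 fold change. MRPL43, a mitochondria-specific protein, stood at 118 and 117 TPM in the controls and at 110.4 and 109.97 TPM in KO+OE, likewise -0.09 as a log2 fold change. Neither passed after adjustment, with limma adjusted p-values of 0.93 for both.

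Beyond these, the largest values in either direction belonged to low genes. MRPL39, a mitochondria-specific protein, stood at 6.58 and 6.38 TPM in the controls and at 4.55 and 5.55 TPM in KO+OE, with a log2 fold change of -0.31 and an interval from -0.64 to 0.02. MRPL19, the lowest gene tested in the large subunit, had the highest value, 0.38, with an interval from -0.13 to 0.89. MRPL30, a bacterial-type protein, stood at 10.3 and 13.9 TPM in the controls and at 13.4 and 15.7 TPM in KO+OE, with a log2 fold change of 0.26 and an interval from -0.15 to 0.67. MRPL47, at the rim of the tunnel, went from 3.64 and 3.28 TPM to 3.65 and 4.22 TPM. All 4 had intervals that include 0.

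The stalk of the large subunit is the site where initiation, elongation and release factors dock. Its members MRPL12, MRPL11 and MRPL10 were all above 100 TPM, with means of 295, 185 and 109.98 TPM. MRPL11 stood at 178 and 179.5 TPM in the controls and at 186 and 195 TPM in KO+OE, without overlap, with a log2 fold change of 0.09 and an interval from -0.01 to 0.19. MRPL10, which anchors MRPL12 to the ribosome, lay between 107 and 112 TPM and overlapped between the groups. The 3 log2 fold changes were 0.01, 0.09 and 0.03, with limma adjusted p-values between 0.93 and 0.99.

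The rim of the exit tunnel, where new chains leave toward the inner membrane, was less even. MRPL23 had a mean of 124 TPM, MRPL24 of 59.1 TPM, MRPL22 of 35.0 TPM and MRPL17 of 34.7 TPM, whereas MRPL47 had a mean of 3.70 TPM. MRPL45, which ties the ribosome to the inner membrane, stood at 39.3 and 36.6 TPM in the controls and at 38.1 and 38.3 TPM in KO+OE, with a log2 fold change of 0.01 and an interval from -0.14 to 0.16. The levels of MRPL45, MRPL22 and MRPL17 were not separated by more than their spread.

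The MRPS18 family consists of 3 homologues of 1 bacterial protein, which occupy different places in the ribosome. MRPS18A, which sits in the large subunit despite its name, stood at 115 and 126 TPM in the controls and at 123 and 128 TPM in KO+OE. MRPS18B, of the small subunit, lay between 71.1 and 73.6 TPM, with a log2 fold change of 0.01. MRPS18C had a mean of 12.2 TPM, so the 3 were separated in level in every library. MRPS30, which also sits in the large subunit, stood at 16.2 and 17.1 TPM in the controls and at 15.3 and 15.5 TPM in KO+OE, with a log2 fold change of -0.10 and an interval from -0.29 to 0.08.

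Replicates of the members differed about as much as those of other genes of the same level. From 50 to 300 TPM, the absolute log2 difference between the 2 control libraries had a median of 0.05 over 39 members and 0.05 over 1615 genes. From 5 to 50 TPM it was 0.13 over 32 members and 0.10 over 5417 genes, and from 1 to 5 TPM 0.21 over 5 members and 0.19 over 4923 genes. The median absolute log2 fold change between groups was 0.051 over members and 0.034 over genes from 50 to 300 TPM. It was 0.096 and 0.075 from 5 to 50 TPM, and 0.084 and 0.14 from 1 to 5 TPM. These are descriptions, and the differences were not tested. The largest replicate differences belonged to MRPL48, MRPL17 and MRPS14. MRPL48 stood at 15 and 22.4 TPM in the controls and at 24.1 and 15.4 TPM in KO+OE. The replicates of MRPL48 thus differed more than the groups, and the log2 fold change of 0.07 had an interval from -0.62 to 0.76. MRPL17 stood at 31.4 and 42.8 TPM in the controls and at 31.5 and 33.3 TPM in KO+OE, and MRPS14 at 17.2 and 16.2 TPM in the controls and at 17.7 and 13.04 TPM in KO+OE. For each of these genes 1 library stood apart from the other 3 or the libraries split across the groups.

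Near-identical copies can share reads with a member. There were 76 pseudogene rows, named as a member followed by P and a number, for 35 of the members, and 70 were listed at 0 in all 4 libraries. A row at 0 does not show how shared reads were assigned, and low members such as MRPS36 and MRPL50 have such rows. Only 2 pseudogene rows averaged 1 TPM or more. MRPL45P2 stood at 2.86 and 2.68 TPM in the controls and at 1.85 and 1.69 TPM in KO+OE, with a log2 fold change of -0.44 (unadjusted p = 0.029, limma, and adjusted p = 0.93), while its parent MRPL45 had a mean of 38.1 TPM. MRPS31P4 stood at 1.81 and 2.10 TPM in the controls and at 2.79 and 2.56 TPM in KO+OE, with a mean of 2.32 TPM close to the 2.83 TPM of MRPS31 itself. The level of MRPS31 is therefore uncertain. For MRPL45 the copy is small beside the gene.

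Exons of 31 members overlap those of another annotated gene, by more than 50% of the exon length in 10 of them. These include MRPL12, overlapped over 69.5% by an unnamed gene on the same strand, and MRPS24, overlapped over 90.9% by the readthrough gene URGCP-MRPS24. MRPS6, high for its GC content, is overlapped over 33.1% by SLC5A3 and an unnamed gene on the same strand. The levels of MRPL12, MRPS24 and MRPS6 are therefore subject to how the authors assigned shared reads, which is not given in the sources used here.

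The 77 members with coordinates lay on 21 chromosomes, with 8 each on chromosomes 1, 2 and 17. A divergent start lay within 1000 bases on the opposite strand, pointing away, with an overlap of starts of up to 200 bases allowed. Of the 78, 19 (24.4%) have such a start of another protein-coding gene. Among protein-coding genes in the same annotation, 1913 of 20175 (9.48%) do, counted whether or not they are expressed in these cells. The median of the 19 was 38.02 TPM and that of the other 59 members 51.5 TPM. Some neighbours had like levels, as MRPL18 at 56.7 TPM beside TCP1 at 54.9 TPM, and others did not, as MRPL36 at 38.02 TPM beside NDUFS6 at 751 TPM. In a single pair both genes are members. MRPL46 of the large subunit (chr15:88459478-88467388) and MRPS11 of the small subunit (chr15:88467708-88480776) start 319 bases apart and run in opposite directions. MRPL46 stood at 25.6 and 20.4 TPM in the controls and at 26.8 and 22.9 TPM in KO+OE, and MRPS11 at 36.1 and 35.6 TPM in the controls and at 34.1 and 40.1 TPM in KO+OE.

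Start sites were examined in the RefSeq windows of 250 bases before to 50 bases after the transcription start (GRCh38.p14), which were at hand for 69 of the 78 members. The letters AAGATGGC, searched on both strands, occurred in the windows of 21 of the 69 (30.4%), against 4.66% of 15843 protein-coding genes. These genes were not limited to those expressed in the cells, and the share among expressed genes alone was not tested. Before the start the shares were 7.25% and 1.77%, and in the part that reaches past the start they were 23.2% and 3.06%. These letters are known both as the core of the YY1 element and as a start codon context of transcripts with very short leaders. For 13 members the ATG inside the letters was the start codon of the gene itself, among 38 members whose start codon lay in the window. A match is a description of the sequence, and binding or translation was not measured. The lines below show 5 of the 13, chosen to span the range of levels, with the 8 letters in capitals.
MRPS24: tggcccAAGATGGCggcctccgtg
MRPS18A: tttttgAAGATGGCggccctcaag
MRPS27: cgctccAAGATGGCtgcctccata
MRPS10: accggcAAGATGGCggcgcggaca
MRPL50: tcatcgAAGATGGCggcgcgatct

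The start codon follows the transcription start by 22 bases in MRPS24, 12 in MRPS18A, 19 in MRPS27, 12 in MRPS10 and 26 in MRPL50. The mean levels of the 5 genes were 269, 123, 49.4, 8.84 and 0.815 TPM, so the same letters stood at the start codon of one of the highest and one of the lowest members. The median of the 13 was 49.4 TPM and that of the other 25 members with a start codon in the window 29.6 TPM.

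Other letters were searched in the same windows and on both strands. The ETS core CCGGAAGT occurred in 12 of 69 members (17.4%), against 6.97% of the same 15843 protein-coding genes, expressed or not. The NRF1 core GCATGCGC occurred in 6 (8.70%) against 4.89%. CCAAT, the letters of NF-Y, occurred in 23 (33.3%) against 42.1%, and TATAAA in 3 (4.35%) against 12.4%. The median level was 84.6 TPM with and 38.1 TPM without the ETS letters, and 49.4 TPM both with and without AAGATGGC. The absence of a match says only that these letters are not in the window.

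The other genes of mitochondrial translation were taken from a list of 51, of which 48 were in the table and 44 were tested. None passed an adjusted p of 0.05, and 4 (9.09%) had an unadjusted p under 0.05, against 5.33% of all genes tested, 2 of them higher and 2 lower in KO+OE. Of the ribosomal proteins with other names, AURKAIP1 had a mean of 271 TPM, GADD45GIP1 of 126 TPM, DAP3, a GTP-binding protein of the small subunit, of 60.4 TPM, CHCHD1 of 38.3 TPM and PTCD3 of 8.62 TPM. GADD45GIP1, a protein of the large subunit, stood at 137 and 130.0 TPM in the controls and at 113 and 123 TPM in KO+OE, with a log2 fold change of -0.18 (95% interval -0.32 to -0.03, limma adjusted p = 0.93).

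Of 23 assembly and modification factors tested, 3 (13.0%) had an unadjusted p under 0.05, against 5.33% of all genes tested. MALSU1, which keeps the large subunit from joining too early, stood at 43.95 and 44.4 TPM in the controls and at 50.5 and 51.1 TPM in KO+OE, with a log2 fold change of 0.20 (95% interval 0.08 to 0.32, limma adjusted p = 0.93). METTL17, a factor of small subunit assembly, stood at 45.8 and 45.1 TPM in the controls and at 49.5 and 51.2 TPM in KO+OE. TRUB2, a pseudouridine synthase, stood at 17.1 and 19.2 TPM in the controls and at 14.9 and 13.9 TPM in KO+OE, with a log2 fold change of -0.31. The groups did not overlap for these 3 genes, as for 34.1% of all genes tested.

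Of 14 translation factors tested, none had an unadjusted p under 0.05. TUFM, the mitochondrial elongation factor Tu, lay between 325 and 335 TPM, above every member. The mitochondrial ribosomal RNAs carry short poly(A) tails at most, so their level after oligo(dT) selection is no measure of ribosome number. MT-RNR2, of the large subunit, stood at 4694 and 4782 TPM in the controls and at 4856 and 4929 TPM in KO+OE. MT-RNR1, of the small subunit, stood at 835 and 832 TPM in the controls and at 843 and 885 TPM in KO+OE. Both were higher in KO+OE in both libraries, by log2 fold changes of 0.05 and 0.05 with intervals that include 0, as was the share of all mitochondrially encoded genes given above.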

How the data were processed

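RNA-seq of polyadenylated RNA was analysed in 4 libraries of H9 cells, 2 per group, with groups and replicate numbers taken from the sample titles. Per the submitters' processing notes, HISAT2, featureCounts, Subread and DESeq2 and the build hg38 were used, with no versions and no strand setting. The authors deposited 1 table of 60671 genes whose header names no unit. The deposited values were read as TPM, since each column sums to between 986853 and 987078 and holds decimals. It held 0 other columns with values of samples. Counts were not used here, so the depth and the counting error are unknown.

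TPM values were analysed as log2(TPM + 1), which understates changes of low genes. The 12319 genes averaging 1 TPM or more were tested with limma 3.58.1 in R 4.3.3 (eBayes with a mean-dependent prior, group as the only term, two-sided) and adjusted by Benjamini-Hochberg over all of them. The script was tested on simulated data. GC content, length and overlaps came from GENCODE release 44 lifted to GRCh37, matched by Ensembl ID, and coordinates from RefSeq GRCh38.p14. MRPS36 had no coordinates there, and 9 members had no promoter window.

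Members named in the text are the 4 highest and 4 lowest of each subunit, those under 1 TPM, those with an unadjusted p under 0.05, the 3 largest changes in each direction, the 3 with the largest replicate differences, and the stalk, MRPS18 family, MRPL45, MRPS30, MRPS36 and parents of expressed pseudogenes. Other members are named for a place or a match, after their values were seen. The members and lists were chosen with earlier results of these data known. Alternatives were the pseudocount, the filter, 3 rescalings, the prior, the replicate block and leaving out each library. Leaving out a library with a test of the remaining 3 was added after the data were seen.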

Additional observations from a re-analysis of the deposited data

How the results depend on the processing

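No member passed an adjusted p of 0.05 under any alternative tried, and none of the translation list did. Members at an unadjusted p under 0.05 numbered 4 as reported, 2 with a pseudocount of 0.1, 2 without the mean-dependent prior and 4 to 6 with 1 library left out, where the lone library of a group is assumed to vary like the other group. For the translation list the number was 4 as reported, 2 without the prior and 2 to 5 with 1 library left out. The cause was not tested.

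The median log2 fold change of the members ran from -0.027 to 0.0084 with 1 library left out, that of the large subunit from -0.027 to 0.0059 and that of the small subunit from -0.023 to 0.016. The small subunit median was -0.0015 after rescaling by median ratios and -0.00044 after rescaling to the genes not encoded by the mitochondrial genome. The log2 ratio of the summed levels was -0.015 as reported, ran from -0.025 to -0.0048 with 1 library left out, and was -0.0018, -0.0013 and -0.00066 after rescaling by median ratios, quantile normalization and rescaling to those genes. MRPL37 turned from -0.0082 to 0.0050 and 0.0062 under the first and the last of these. The ratio of large to small subunit was 1.52 for median levels and 2.10 for summed levels, which are sums over 49 and 29 genes. Per gene the means were 83.7 and 67.3 TPM, a ratio of 1.24. Of 30 named members, 13 changed sign when 1 library was left out.

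Same-numbered libraries did not deviate together (correlation -0.0485, 2 pairs), so the numbers were not taken as pairs. With the replicate block, 0 members passed an adjusted p of 0.05, 4 had an unadjusted p under 0.05 and the median log2 fold change was -0.017. The depth of the libraries is unknown, so values under 1 TPM carry an error that could not be computed.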
